A study of Mus musculus with 44 samples.

Results

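Plasma cells that lacked the YFP label were compared between the bone marrow and the spleen of the same young mice, 90 days after tamoxifen. The members are 8 of the 44 libraries of the series: the bone marrow and the spleen library of each of mice F2, F9, M2 and M7, each a separate animal named in the titles. They were chosen by their labels alone (young, day 90, the TOM libraries whose cell type is given as bulk plasma cells), and no measured value entered the choice. All the mice carried the genotype labelled BEC-YFP and received tamoxifen, the comparison mice included. The promoter that drives the recombinase or the label is not given in the sources used here.

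The series profiled plasma cells sorted as CD138-high and B220-negative, separately as YFP+ and YFP- cells, from both organs. Young mice were 6 to 8 weeks old at tamoxifen and middle-aged mice 24 weeks, both taken at day 90. A further set of mice, 24 weeks old at tamoxifen, was taken at day 5. The other groups used below are the YFP- cells of 24-week mice at day 90 (8 libraries of 4 mice), the YFP+ cells of young mice at day 90 (6 libraries of 3 mice) and the YFP- cells of 24-week mice at day 5 (6 libraries of 3 mice).

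Plasma cells are the antibody-secreting end stage of the B lineage. They have a greatly enlarged endoplasmic reticulum (ER), folded and kept in order by chaperones and the unfolded protein response, and a transcription factor set led by Prdm1, Irf4 and Xbp1. The spleen is a main site where they form after immunisation or infection, and the bone marrow is known as the site where long-lived ones persist, near stromal cells that supply CXCL12 and near cells that supply APRIL. Moving between the organs relies on chemokine receptors, integrins and the sphingosine 1-phosphate receptor S1pr1.

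The cells of both organs carried the plasma cell programme. Jchain, which links polymeric IgA and IgM, took 23.3% to 38.3% of all counts in the 8 libraries, from which immunoglobulin genes had been left out by the authors. Levels below are CPM, counts as a share of the library total after scaling between libraries, and are not per gene length. Xbp1 lay between 11274 and 13502 CPM in all 8 libraries, Sdc1, which encodes CD138, between 462 and 743 CPM, and Tnfrsf17, which encodes the survival receptor BCMA, between 298 and 551 CPM. None of the 20 genes of a plasma cell identity list passed the test between organs described below, and the median log2 change of the list was 0.01 against -0.02 for all 12457 genes tested. Library totals ran from 7775248 to 10546168 counts.

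Markers of other cells were low but not even. The summed neutrophil and granulocyte precursor list (20 genes) stood at 862 CPM in the marrow and 581 CPM in the spleen library of M7, against 31.1 to 280 CPM in the other 6 libraries. The monocyte and macrophage list stood at 832 and 578 CPM in the same libraries, against 40.3 to 325 CPM. The erythroid list stood at 696 CPM in the marrow library of M2 and at 9.11 to 133 CPM elsewhere. Both libraries of M7 were thus high for myeloid markers, and 1 marrow library for erythroid ones. The T cell list lay between 11.9 and 77.1 CPM and the B cell list between 1248 and 1653 CPM, with overlap between organs. Among defining markers, the B cell factor Pax5 and the eosinophil peroxidase Epx were at or near 0 in all 8 libraries, and Siglech of plasmacytoid dendritic cells did not exceed 0.413 CPM. Single genes made up most of some sums: Prg2 nearly the whole of the eosinophil, basophil and mast cell list, Ly6d 78.7% to 90.4% of the plasmacytoid dendritic cell list, and Cd79b, a chain of the B cell receptor complex, 80% to 88.5% of the B cell list. The level of the B cell list in each organ thus rests mainly on Cd79b. In bulk libraries, a change in the share of cells of a kind and a change in RNA per cell cannot be told apart.

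**Figure D1:**
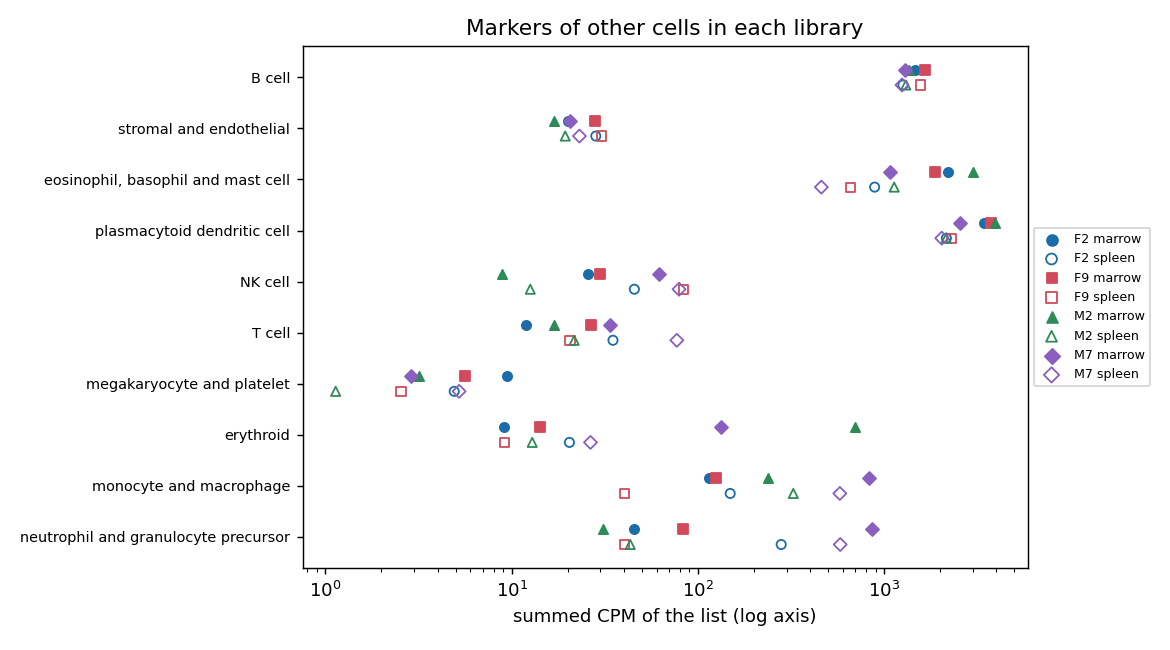
Summed CPM of 10 lists of markers of other cells (log axis) in each of the 8 libraries; filled symbols are marrow, open symbols spleen, and shape and colour give the mouse. M7 is highest for the neutrophil list in both organs (862 and 581 CPM) and the marrow library of M2 for the erythroid list (696 CPM).

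Marrow cells differed from spleen cells in a short set of genes. With the mouse as a block in an edgeR quasi-likelihood fit of 43 libraries, 26 of 12457 genes (0.209% of all tested) passed a Benjamini-Hochberg adjusted p of 0.05, 17 higher (0.136%) and 9 lower (0.0722%) in marrow. All 26 moved in 1 direction in all 4 mice, and in 16 of them the 4 marrow and the 4 spleen values did not overlap (4.74% of all genes tested did not overlap). The higher genes had the secreted protease inhibitor Slpi first by p and included Wnt10a, Prg2 and the surface genes Ly6i and Ly6a. The lower genes held the ectoenzyme Cd38, the GTPase Gbp6 and non-classical class I histocompatibility genes, the latter of the interferon-inducible kind. A fit of the 8 libraries alone, also paired by mouse, estimated less spread (common dispersion 0.0469 against 0.117) and called 143 genes higher (1.38%) and 160 lower (1.54%) of 10378 (2.92% called). All 303 had the same sign in the larger fit, and 24 of the 25 genes of the first call that it tested were called in both. The 8-library fit has only 3 residual degrees of freedom, so calls found in it alone are named as such below. Without the mouse block, the 43-library fit called no gene in either direction. In it, 499 of 12457 genes had an unadjusted p under 0.05 (edgeR), no more than chance alone would give. All 26 kept their sign, which follows closely from their 1 direction in all 4 mice of the same libraries.

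Slpi, a protease inhibitor of mucosal and immune secretions, showed the lowest p. It stood in marrow at 14992 CPM in F2, 15387 in F9, 30524 in M2 and 13120 in M7, and in spleen at 4726, 3285, 2364 and 2927 CPM in the same order. The organs did not overlap, and M2 had both the highest marrow and the lowest spleen value. The marrow library of M2 was also the one with the most erythroid marker RNA, whose part in its Slpi value was not tested. The mean was 18506 ± 8073 CPM in marrow and 3325 ± 1008 CPM in spleen (SD, n = 4 each), a log2 change of 2.42 ± 0.34 (SE; adjusted p = 0.000861, edgeR). Slpi passed in each edgeR fit that left out 1 mouse, with an adjusted p of at most 0.0252. It was the 1 gene of the 26 to do so: the other 25 were each lost in at least 1 of the 4 fits, and 12 of them in all 4, among these Ly6a, H2-Q7, H2-Q6, Samhd1, Adgre5, Tpm4, Samd11 and Rbm3. It did not pass in the 8-library fit (log2 2.43 ± 0.45, adjusted p = 0.131), nor without the block (2.48 ± 0.46, adjusted p = 0.0605).

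The Ly6 family encodes small surface proteins held by a lipid anchor, of which Ly6a, known as Sca-1, is inducible by interferon. Ly6i stood at 79.1, 63.2, 113 and 43.2 CPM in the marrow of F2, F9, M2 and M7 and at 24.0, 22.2, 23.9 and 20.2 CPM in their spleens (log2 1.65 ± 0.26, adjusted p = 0.00275, edgeR). Ly6a stood at 4712, 5379, 6476 and 3660 CPM in marrow and at 2865, 2658, 3155 and 1895 CPM in spleen (log2 0.93 ± 0.18, adjusted p = 0.0159). Every marrow value of both genes lay above every spleen value. Of the 10 Ly6 genes tested, a family chosen after its values were seen, 9 had a positive change (6000 of all 12457 genes did). The 43-library fit called 2 of them (0.209% of all genes were called), and the median log2 change was 0.28. In the 8-library edgeR fit, Ly6d (log2 0.77 ± 0.09, adjusted p = 0.000366) and Ly6e (0.28 ± 0.07, adjusted p = 0.046) were called as well. That fit called 4 of the 10 (2.92% of all genes were called). Ly6c2, which encodes a form of Ly6C, stood at 4744, 2686, 8385 and 2771 CPM in marrow and at 1422, 1395, 1268 and 1493 CPM in spleen. Its marrow values were all higher but widely spread, and neither fit called it (log2 1.58 ± 0.39, adjusted p = 0.107). Near-identical copies limit the split of reads here: 10% of the 50-base windows of the Ly6a transcript and 33% of those of Ly6c2 also occur in another gene, mostly Ly6c1.

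Prg2, known as the eosinophil major basic protein, stood at 2207, 1883, 2989 and 1071 CPM in the marrow of F2, F9, M2 and M7 and at 884, 656, 1127 and 455 CPM in their spleens (log2 1.37 ± 0.22, adjusted p = 0.00363, edgeR). The organs overlapped only through M7, whose marrow value lay below the spleen value of M2, and within each mouse the ratio was much alike, which gave Prg2 the lowest p in the 8-library fit (SE 0.08, adjusted p = 3.06e-07). Epx, which eosinophils express with Prg2, was at 0 CPM in all 8 libraries.

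Further genes higher in marrow encode a ligand, membrane proteins and enzymes. Wnt10a, a secreted Wnt ligand, stood at 55.6, 28.2, 164 and 35.6 CPM in marrow and at 15.9, 10.6, 80.2 and 19.7 CPM in spleen (log2 1.27 ± 0.20, adjusted p = 0.00275, edgeR). M2 was far above the other mice in both organs, so the organs overlapped while each mouse was higher in marrow. Cd59a, which blocks the membrane attack complex of complement, stood at 33.4, 23.7, 30.0 and 19.3 CPM in marrow and at 16.9, 8.37, 13.3 and 12.2 CPM in spleen, without overlap (log2 1.08 ± 0.21, adjusted p = 0.0159). Gcsam, a signalling adaptor of germinal centre B cells, stood at 18.3, 30.7, 6.56 and 25.0 CPM in marrow and at 8.14, 13.0, 0.516 and 4.74 CPM in spleen (log2 1.90 ± 0.39, adjusted p = 0.0255). M2 was lowest for Gcsam in both organs. The other genes named by the rule were Spns3 of the spinster transporter family (log2 1.36 ± 0.27), the tight junction protein Cldn7 (1.40 ± 0.30), Izumo4 (1.16 ± 0.24) and Tmem205 (1.11 ± 0.25), each higher in marrow in all 4 mice, with adjusted p from 0.0159 to 0.0477.

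**Figure D2:**
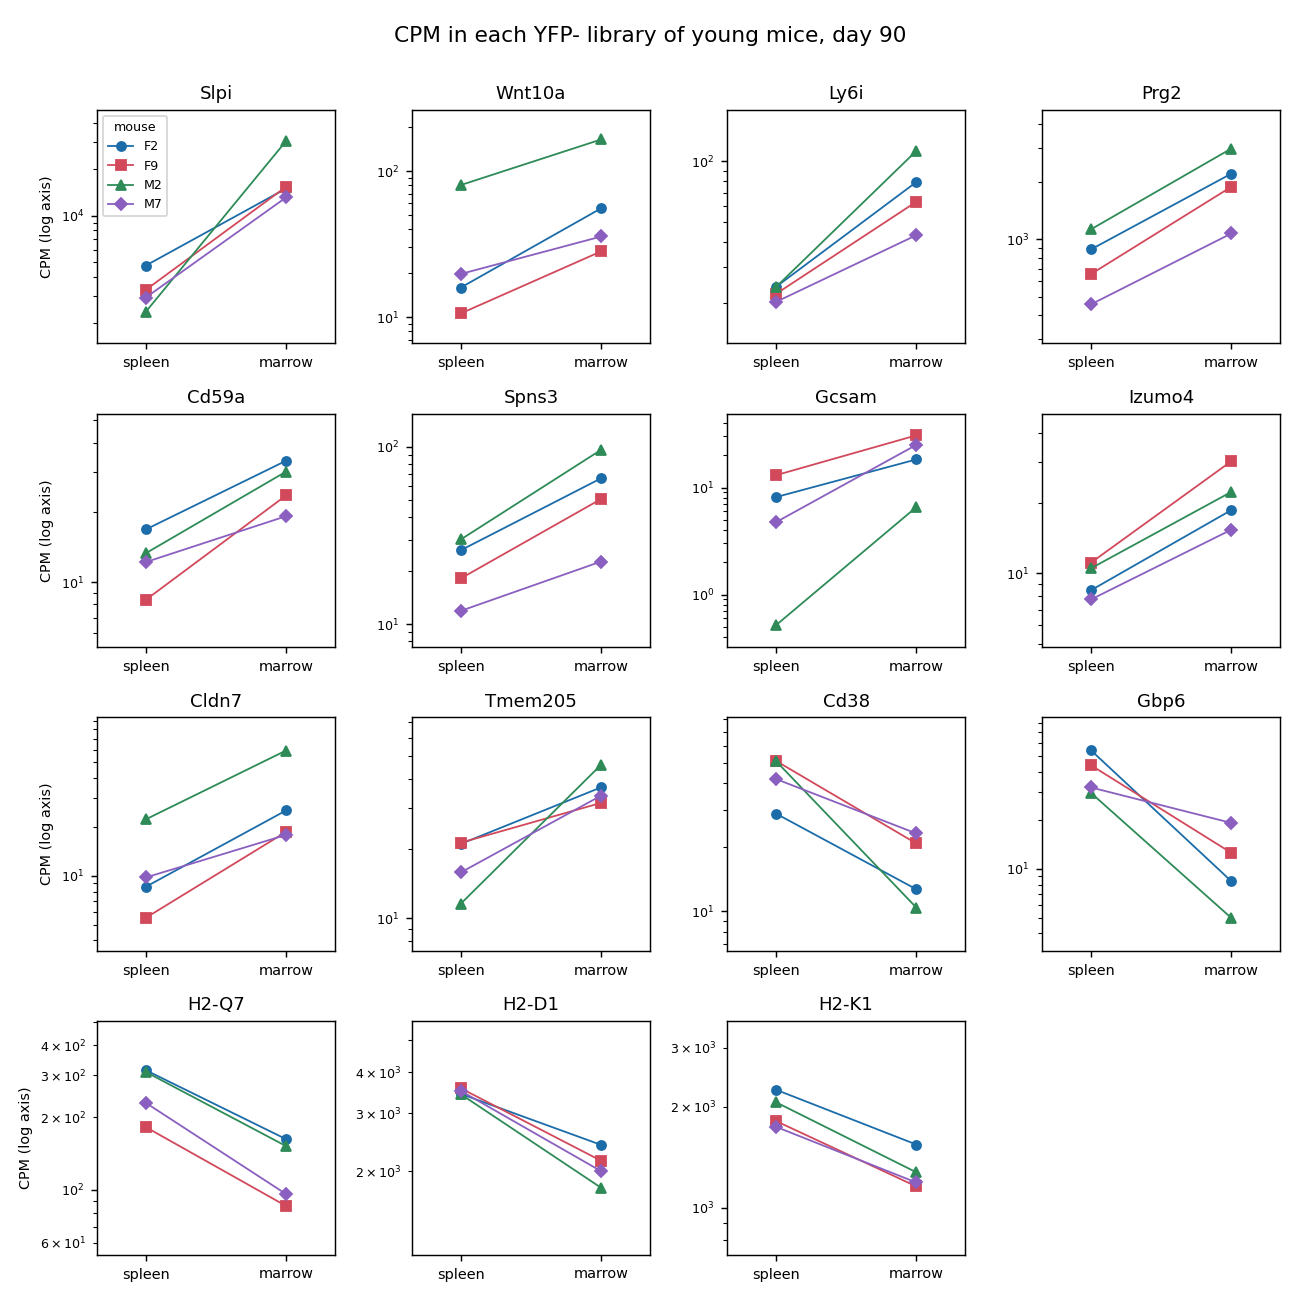
CPM (log axis) of 15 genes in spleen and marrow, with a line joining the 2 libraries of each mouse; the first 13 genes were called in the 43-library fit, and H2-D1 and H2-K1 in the 8-library fit only. Every line rises toward marrow for the 10 higher genes, such as Slpi, and falls for the 5 lower ones, such as Cd38.

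Of the genes called with a smaller change or level, Tmem176b rose from 950 ± 227 to 1579 ± 249 CPM and Tmem176a from 584 ± 97.8 to 1014 ± 123 CPM (means ± SD, n = 4 mice, spleen to marrow, without overlap; log2 0.75 ± 0.12 and 0.80 ± 0.14). The pair lies head to head on chromosome 6, and the gene bodies overlap over 578 bases in GENCODE M21 (GRCm38). Reads in that stretch cannot be assigned to 1 of them without strand. In the longest coding transcripts, 0% of the 50-base windows of Tmem176a and 0.813% of those of Tmem176b occur in another gene. Rbm3, an RNA-binding protein induced by cold, was higher by 0.68 ± 0.15 on the log2 scale (adjusted p = 0.0477, edgeR), and Cirbp, a cold-induced protein of the same kind, was called in the 8-library fit only (0.72 ± 0.12, adjusted p = 0.00411). Usp2, a deubiquitinase (log2 1.53 ± 0.28), Spag6 (1.62 ± 0.31) and the protease cathepsin W gene Ctsw (0.81 ± 0.17) made up the rest of the 17. These genes fall outside the rule for named genes or are below its level and were singled out after their values were seen.

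The lower genes held several that interferon induces. Gbp6, an interferon-induced GTPase, stood at 8.39, 12.6, 4.97 and 19.3 CPM in marrow and at 54.2, 43.8, 29.5 and 31.9 CPM in spleen (log2 -1.95 ± 0.40, adjusted p = 0.0273, edgeR). The organs did not overlap, and M7 showed the smallest gap. Samhd1, which breaks down deoxynucleotides, had a log2 change of -0.89 ± 0.17 (adjusted p = 0.0159). For Gbp6, 90.2% of the 50-base windows occur in an overlapping gene model, so part of its reads may have been counted elsewhere.

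The interferon response list did not move as 1 block. Of its 31 tested genes, 22 had a negative change and the median log2 change was -0.61, against -0.02 for all genes, while 51.8% of all genes were negative. Its called genes include Samhd1, lower, and Ly6a, higher. The 8-library fit, which tested 23 of the list, added Irf1 (log2 -0.46 ± 0.11) and Irf9 (-0.60 ± 0.12) as lower, and Ly6e as higher. Irf1 and Irf9 are both transcription factors of the pathway. Of all genes, that fit called 1.38% higher and 1.54% lower. Irf1 was lost whichever mouse was left out (adjusted p = 0.0529 to 0.137), Ly6e without F2, F9 or M7, and Irf9 without F9 or M7. Many members were scarce: Isg15 stood at 0.636 to 5.64 CPM in marrow and 2.37 to 12.6 CPM in spleen (adjusted p = 0.602 in the 43-library fit). Per mouse, the median over the list was -0.16 in F2, 0.00 in F9, -0.50 in M2 and -0.51 in M7 (log2 of CPM + 1). The added 1 draws scarce genes toward 0, so the median of F9 does not show that its members were even. In F9, Samhd1 changed by -1.20 and Ly6a by 1.02 on that scale.

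Class I histocompatibility molecules show peptides from inside the cell to T cells and are raised by interferon. H2-Q7, a non-classical member, stood at 162, 85.4, 152 and 95.7 CPM in the marrow of F2, F9, M2 and M7 and at 315, 182, 310 and 230 CPM in their spleens (log2 -1.09 ± 0.23, adjusted p = 0.0315, edgeR). H2-Q6 fell beside it (-0.91 ± 0.20, adjusted p = 0.0378), but 35% of its windows also occur in another gene, mainly H2-Q7, so the split between the 2 is uncertain. The classical H2-D1 stood at 2403, 2150, 1779 and 1999 CPM in marrow and at 3437, 3575, 3429 and 3509 CPM in spleen, and H2-K1 at 1542, 1157, 1274 and 1188 CPM against 2247, 1812, 2062 and 1742 CPM. The organs did not overlap for H2-Q7, H2-D1 or H2-K1. H2-D1 (log2 -0.75 ± 0.17) and H2-K1 (-0.61 ± 0.14) just missed the threshold in the 43-library fit (adjusted p = 0.0565 for both) and passed in the 8-library fit, at adjusted p = 0.000184 and 0.000589, and also there without any 1 of the mice.

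Of 16 class I genes tested, 12 had a negative change (median log2 -0.42), and 8 were lower and 0 higher in all 4 mice. By way of comparison, 51.8% of all genes had a negative change and 12.2% were lower in all 4 mice. Class I genes share sequence, so their values are not independent of each other. Of the 50-base windows of H2-D1, 14.3% occur in another gene, and of those of H2-T23, 29.8%, both mainly in H2-K1. The shares were 8.79% for H2-K1 and 34.9% for H2-Q7. The 8-library fit tested 14 of the class I genes and called 4, those just given, all lower in marrow (1.54% of all genes were called lower). H2-T23 had a log2 change of -0.17 ± 0.14, the peptide transporter subunits Tap1 and Tap2 of -0.47 ± 0.27 and -0.22 ± 0.36, the light chain B2m of 0.29 ± 0.20 and the immunoproteasome subunit Psmb8 of 0.29 ± 0.13, none called in either fit. H2-T23 and Tap1 were lower in marrow in all 4 mice, so a missed call does not show that they did not differ. H2-K1, H2-D1 and these genes outside the lists were chosen after their values were seen.

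The promoters of the 4 class I genes that were lower are shown because the known control elements of class I genes can be read in them. Each is the RefSeq window from 250 bases before to 50 after the listed start, on the gene's strand (GRCm38.p6). The 4 windows share 6 runs of at least 10 bases, and capitals mark 2 of them: GGCTGGGGATTCCC, which holds an element of the kind bound by NF-kB, and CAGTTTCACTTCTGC, which holds one of the kind bound by interferon regulatory factors. The windows are H2-Q7 at chr17:35438905-35439204 and H2-Q6 at chr17:35424600-35424899 on the plus strand, H2-D1 at chr17:35262844-35263143 on the plus strand, and the first of 2 listed starts of H2-K1 at chr17:34000298-34000597 on the minus strand.
H2-Q7: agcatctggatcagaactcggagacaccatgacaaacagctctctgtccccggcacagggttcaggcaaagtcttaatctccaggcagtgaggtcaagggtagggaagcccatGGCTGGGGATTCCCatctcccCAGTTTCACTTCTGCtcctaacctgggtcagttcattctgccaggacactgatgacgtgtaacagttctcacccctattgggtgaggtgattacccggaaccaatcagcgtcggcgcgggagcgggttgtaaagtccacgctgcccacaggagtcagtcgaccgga
H2-Q6: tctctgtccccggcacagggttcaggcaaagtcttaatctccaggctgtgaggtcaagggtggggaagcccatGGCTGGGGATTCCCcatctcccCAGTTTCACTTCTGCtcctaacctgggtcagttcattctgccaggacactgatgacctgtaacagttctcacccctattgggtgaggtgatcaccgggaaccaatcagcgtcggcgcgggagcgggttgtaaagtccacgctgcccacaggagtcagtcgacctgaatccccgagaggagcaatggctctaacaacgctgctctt
H2-D1: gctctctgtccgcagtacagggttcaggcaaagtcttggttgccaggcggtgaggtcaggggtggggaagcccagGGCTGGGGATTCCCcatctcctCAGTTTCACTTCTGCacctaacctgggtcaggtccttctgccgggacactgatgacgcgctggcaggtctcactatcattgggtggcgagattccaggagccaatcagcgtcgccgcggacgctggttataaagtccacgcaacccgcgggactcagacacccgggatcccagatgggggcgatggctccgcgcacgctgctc
H2-K1: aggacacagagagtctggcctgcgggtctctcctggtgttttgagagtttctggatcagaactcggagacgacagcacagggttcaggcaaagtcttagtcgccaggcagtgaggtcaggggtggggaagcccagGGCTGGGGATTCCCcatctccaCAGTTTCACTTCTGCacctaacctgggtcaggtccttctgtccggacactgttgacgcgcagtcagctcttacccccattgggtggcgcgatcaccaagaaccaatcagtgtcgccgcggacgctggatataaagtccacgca

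Searched on both strands, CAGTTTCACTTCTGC occurred in 7 of 32851 promoter windows of the same length (0.0213%) and GGCTGGGGATTCCC in 5 (0.0152%), all of which held both and belonged to these 4 genes. Since the runs were read from these windows, their presence there was given. The runs do not overlap each other, and the one with the interferon element began at -116 from the start in H2-Q7, -155 in H2-Q6, -153 in H2-D1 and -93 in H2-K1. Of the 9 genes called lower, 6 had a listed promoter and 2 of these, H2-Q6 and H2-Q7, held it. Of the 17 called higher, 9 had one and 0 held it. With 7 such windows in 32851, that 0 was near certain beforehand. The counts therefore do not tie the run to a direction. A match is a description of the letters and shows no binding in these cells.

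Other genes lower in marrow were surface and cytoskeletal genes, of which Adgre5, Tpm4 and Samd11 fall outside the rule for named genes and were singled out after their values were seen. Cd38, an ectoenzyme that consumes NAD and marks mouse B cells, stood at 12.7, 20.9, 10.4 and 23.2 CPM in marrow and at 28.8, 51.0, 50.9 and 41.9 CPM in spleen, without overlap (log2 -1.39 ± 0.27, adjusted p = 0.0159, edgeR). Adgre5, the adhesion receptor CD97, stood at 40.9, 34.8, 36.1 and 31.4 CPM in marrow and at 97.4, 60.0, 56.7 and 61.1 CPM in spleen (-0.91 ± 0.18, adjusted p = 0.0222). F2 had the highest spleen value of Adgre5 by far, and the organs did not overlap without it either. Tpm4, a tropomyosin of the actin skeleton, had a log2 change of -0.81 ± 0.17 (adjusted p = 0.0255). Samd11 had 3 counts over the 4 marrow libraries and 156 over the 4 spleen libraries, a ratio of 42.1 (95% exact interval 14.1 to 206, counting error only), and 26.1% of its windows occur in another gene, mainly its neighbour Noc2l.

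Homing genes had more lower than higher values in marrow. Of 32 tested, 20 had a negative change, 8 were lower in all 4 mice (25% against 12.2% of all genes) and 2 higher, the median log2 change was -0.19 and the 43-library fit called none (adjusted p of at least 0.231 for those named here). The median over the list was -0.02 in F2, -0.08 in F9, -0.14 in M2 and -0.30 in M7. The 8-library fit called 3 of 23 tested, all lower in marrow (1.54% of all genes were). S1pr1, the receptor by which lymphocytes leave tissues toward blood, stood at 0.509, 1.71, 3.08 and 8.12 CPM in the marrow of F2, F9, M2 and M7 and at 9.07, 20.8, 6.19 and 32.9 CPM in their spleens (log2 -2.46 ± 0.42, adjusted p = 0.00986). The integrin subunits Itgb7 (-0.58 ± 0.11) and Itgam (-1.63 ± 0.28) were lower too, and neither was called without F2 or without F9. For Itgam, 72.4% of the windows occur in an overlapping gene model. M7 was highest for S1pr1 in both organs, and its libraries were those with the most myeloid marker RNA. The summed NK cell list was higher in spleen in all 4 mice, and the T cell list in 3 of 4. The NK sum was 25.7, 29.9, 8.84 and 61.9 CPM in the marrow of F2, F9, M2 and M7, against 45.6, 83.4, 12.6 and 79.2 CPM in spleen. Gzma alone made up 27.9% to 73.1% of it. Prf1 of the list was higher in spleen in all 4 mice (4.37 to 10.6 CPM in marrow, 5.88 to 24.2 CPM in spleen). Nkg7 lay between 0 and 12.9 CPM, and Eomes, Klrk1 and Txk did not exceed 1.96 CPM. The other members, Ncr1, Klrb1c, Klra4, Klra8, Klre1 and Klri2, were at 0 CPM in all 8 libraries. Of the monocyte and macrophage list, the 8-library edgeR fit called Spic, a transcription factor of macrophages, lower in marrow (log2 -2.92 ± 0.68, adjusted p = 0.0336). Spic was scarce (0.127 to 4.84 CPM), and its call was lost without F2, M2 or M7. Cd68 of the same list was called higher in marrow (0.80 ± 0.12, adjusted p = 0.00271), also without any 1 of the mice. The part of other cells in the values of S1pr1 and the integrin genes was not tested. S1pr1 was called also without M7 (adjusted p = 0.0353, over a range of 2.52e-07 to 0.0482 in the alternatives of the 8-library fit). Cxcr4, the receptor for CXCL12, stood at 18.5 ± 8.38 CPM in marrow and 21.5 ± 12 CPM in spleen (SD, n = 4 each; adjusted p = 0.928 in the 43-library edgeR fit), and Cxcr3 and Ccr10 were called in neither fit.

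Among survival receptors (21 tested, median log2 -0.12), Cd38 alone was called in the 43-library fit. The 8-library fit called Cd93, a surface receptor tied to plasma cell persistence in marrow, as higher in marrow (72.9 ± 14.9 against 52.3 ± 15.2 CPM, SD, n = 4 each; log2 0.50 ± 0.12, adjusted p = 0.0362). This call was lost whichever mouse was left out (adjusted p = 0.0695 to 0.192, edgeR). Tnfrsf17, Tnfrsf13b and Cd28 were called in neither fit, with log2 changes of 0.10 ± 0.16, -0.14 ± 0.22 and -0.12 ± 0.12. No apoptosis regulator of 19 was called, with Mcl1 at 0.13 ± 0.14 and Bcl2 at 0.17 ± 0.20. Cd36, a scavenger receptor for fatty acids, stood at 2.67, 2.44, 4.77 and 2.61 CPM in marrow and at 20, 19.4, 29.4 and 5.32 CPM in spleen, and was called in the 8-library fit only (log2 -2.44 ± 0.32, adjusted p = 0.000799). No value overlapped between organs.

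Most genes of the secretory pathway had slightly lower values in marrow. Of 32 ER secretion and unfolded protein response genes, 25 had a negative change, the median log2 change was -0.25, and 17 (53.1%) were lower in all 4 mice, against 12.2% of all genes. The 43-library fit called none of them. The 8-library fit called 12 lower and 1 higher (2.92% of all genes were called either way). Hspa5, the chaperone BiP, stood at 4578, 3540, 4905 and 7111 CPM in the marrow of F2, F9, M2 and M7 and at 6676, 5385, 8141 and 8206 CPM in their spleens (log2 -0.52 ± 0.08, adjusted p = 0.00449). Each mouse was lower in marrow, although the organs overlapped through M7. Hsp90b1 (-0.45 ± 0.07), the chaperone calreticulin gene Calr (-0.50 ± 0.08), the disulphide isomerase Pdia4 (-0.70 ± 0.10) and Syvn1, a ligase that marks misfolded proteins for degradation (-0.85 ± 0.14), were called too. The exception was Ssr4, a subunit of the translocon-associated complex, which was higher (0.38 ± 0.08, adjusted p = 0.0226), a call lost whichever mouse was left out (adjusted p = 0.0547 to 0.0953). The median over the list was -0.25 in F2, -0.26 in F9, -0.36 in M2 and -0.20 in M7. Without 1 mouse, the 8-library fit called 3 to 11 of the list lower.

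Amino acid uptake and synthesis genes also had mostly lower values in marrow. Of 20 genes of the integrated stress response and amino acid list, 18 had a negative change (90% against 51.8% of all genes; median log2 -0.53) and 0 were called in the 43-library fit. The 8-library fit called 4 of 18 tested lower (1.54% of all genes were): the transporter genes Slc3a2 (log2 -0.61 ± 0.11), Slc7a5 (-0.72 ± 0.16) and Slc7a3 (-0.77 ± 0.17), and Psat1 of serine synthesis (-0.60 ± 0.14). Slc3a2 stood at 2927, 2973, 3393 and 3130 CPM in marrow and at 4257, 3509, 7097 and 4793 CPM in spleen, without overlap. Atf4, the transcription factor of the response, had a log2 change of 0.10 ± 0.14. Without 1 mouse, 0 to 2 genes of the list were called.

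Mitochondrially encoded genes, which specify subunits of the respiratory chain and the ATP synthase, had mostly higher values in marrow. Of 13 genes, 10 had a positive change, the median log2 change was 0.47, and 9 were higher in all 4 mice (11.4% of all genes were). None was called in the 43-library fit, and 8 of 11 tested were called higher in the 8-library fit (1.38% of all genes were). The mt-Nd1 transcript stood at 795, 529, 488 and 498 CPM in the marrow of F2, F9, M2 and M7 and at 374, 354, 333 and 437 CPM in their spleens (8-library log2 0.60 ± 0.12, adjusted p = 0.0159), and mt-Cytb at 2525, 1955, 2235 and 2174 CPM against 1638, 1586, 1692 and 1793 CPM (0.40 ± 0.08, adjusted p = 0.0153). Neither gene overlapped between organs, and F2 was the highest marrow library for both. The change was smallest in M7, where the median over the list was 0.28, against 0.37 in F9, 0.52 in M2 and 0.76 in F2. Without F2, none of the list was called. Nuclear copies share reads with some of these genes: all windows of mt-Co2 (100%) and 99.9% of those of mt-Co3 occur in another gene model, and mt-Co3 was listed at 0 CPM in the marrow of F9 and at 53.0 to 557 CPM in the other 7 libraries. For mt-Nd1 and mt-Cytb the share was 0%.

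**Figure D3:**
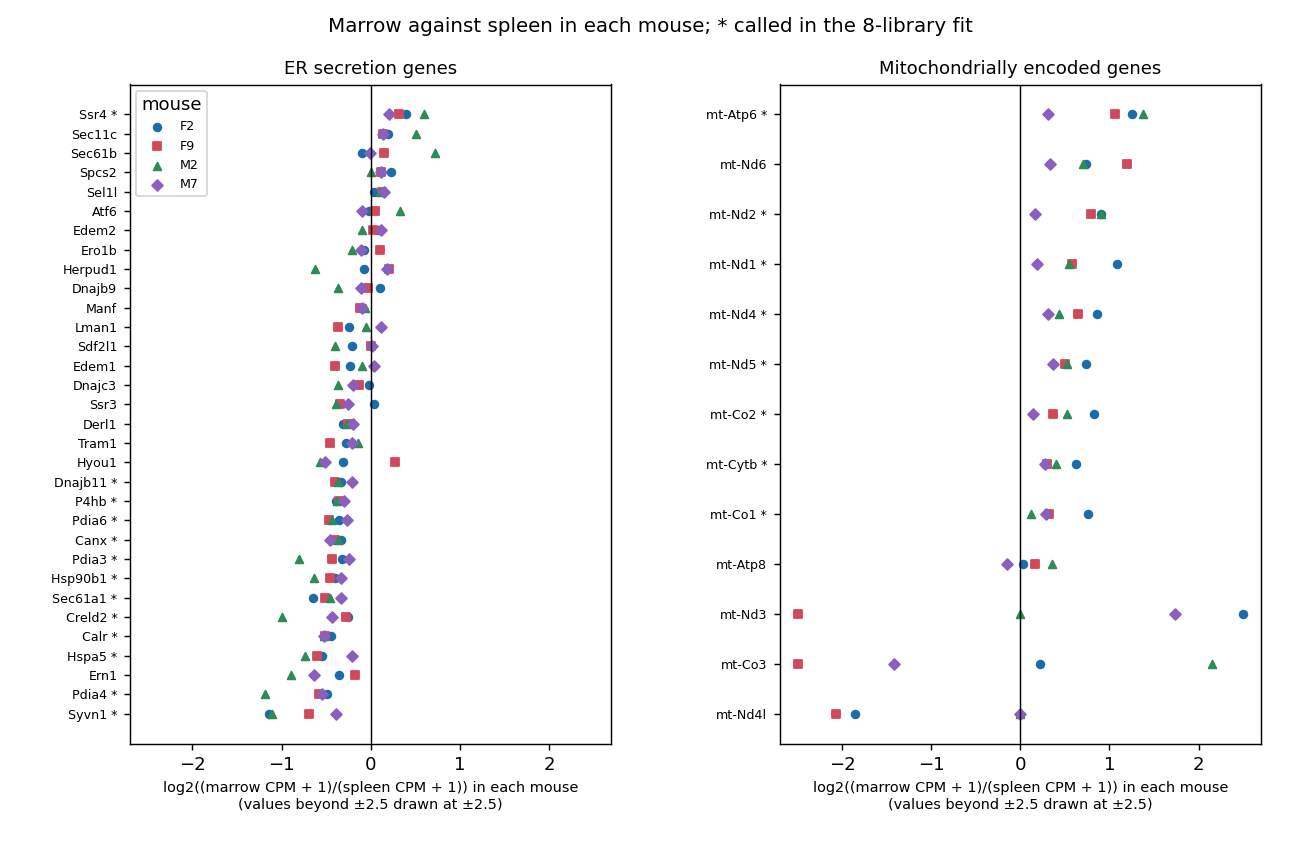
Marrow minus spleen in each mouse, as log2 of CPM + 1, for the ER secretion genes (left) and the mitochondrially encoded genes (right), ordered by the change in the 43-library fit; stars mark genes called in the 8-library fit, and values beyond the axis are drawn at its edge. The starred ER genes other than Ssr4 lie to the left of 0 in all 4 mice, and the starred mitochondrial genes to the right.

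Few plasma cell and B cell genes were called. Jchain stood at 305456, 438436, 265694 and 371407 CPM in marrow and at 242447, 331090, 216015 and 263974 CPM in spleen, higher in marrow in each mouse, and was called in the 8-library fit only (log2 0.39 ± 0.06, adjusted p = 0.00271). Since it fills so much of each library, its level bears on the scale of all others. Prdm1 had a log2 change of -0.36 ± 0.13 and Irf4 of 0.06 ± 0.15, and neither was called. In the class II pathway, the 8-library fit called the invariant chain Cd74 higher (0.41 ± 0.07) and H2-Aa, a chain of the class II molecule, lower (-0.43 ± 0.10), the first lost without F2 or F9 and the second without F2, M2 or M7. Of 32 proliferation genes, 21 were negative (median log2 -0.13), and the replication helicase subunit Mcm6 was the 1 called, in the 8-library fit (-0.76 ± 0.11). Mki67, a marker of cycling cells, was at 30.0 ± 7.38 CPM in marrow and 30.3 ± 5.78 CPM in spleen. Cholesterol synthesis (22 genes, median 0.10) and glycolysis (19 genes, median -0.15) had 0 and 1 gene called in the 8-library fit, the latter being Pfkp of glycolysis (-0.81 ± 0.14), and 0 in the larger fit.

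**Figure D4:**
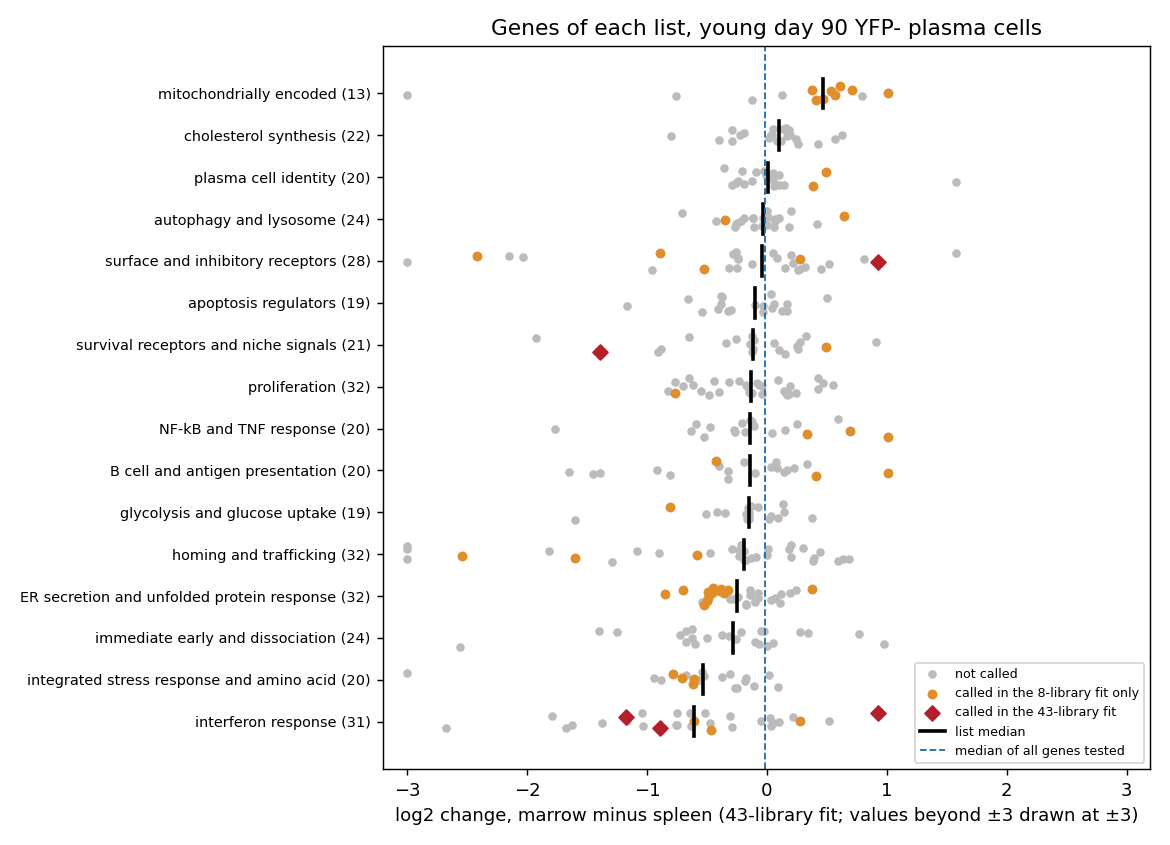
Log2 change (marrow minus spleen, 43-library fit) of each tested gene of 16 lists, with the number tested in brackets; bars are list medians, the dashed line the median of all genes (-0.02), and values beyond 3 are drawn at 3. The interferon list has the lowest median (-0.61) with called genes on both sides, and the mitochondrially encoded list the highest (0.47).

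The 26 genes were then read in other libraries of the series, which were part of the same 43-library fit. In YFP- cells of 24-week mice at day 90, all 26 had the same sign of the organ difference (56.9% of all genes did), and 5 were called there too (0.225% of all genes were): Slpi, Gcsam, Spag6, H2-Q6 and H2-Q7. They are 19.2% of the 26 and 17.9% of the 28 genes called in those mice. Slpi changed there by 1.53 ± 0.33 and H2-Q7 by -1.29 ± 0.23 (log2). In YFP+ cells of young mice, partly the same mice, 23 of 26 had the same sign (62.5% of all genes did), all but Cd59a, Spns3 and Wnt10a, and Adgre5 was called (0.0883% of all genes were). In YFP- cells of 24-week mice at day 5, 20 of 26 had the same sign (40% of all genes did) and 0 were called, with 6 genes (0.0482%) called in all in that comparison. Day 5 differs from the young mice in age as well as in time, and the 2 cannot be told apart.

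No gene of the 26 was shown to have a different organ difference between these groups. The test of the difference called 0 genes (0%) against YFP+ cells (375 at an unadjusted p under 0.05; DESeq2 called 36, and limma voom 0). Against 24-week mice at day 90 and against day 5 it called 1 gene each (0.00803%), Prss34, a protease of basophils. At an unadjusted p under 0.05 (edgeR) there were 582 genes against 24-week mice at day 90 and 2625 against day 5. Chance alone gives a share of 0.05 of the 12457 genes. The counts against YFP+ cells and 24-week mice at day 90 did not exceed that share, and the count against day 5 did. A gene not called is still not shown to have the same organ difference in these groups. Prss34 was at most 0.488 CPM in the 8 young libraries, and stood at 150 and 240 CPM in the marrow libraries of F15 and M3 among 24-week mice and at 2236 CPM in 1 marrow library at day 5. So that difference lay in single marrow libraries of the other mice. For Wnt10a, the organ change was 1.27 ± 0.20 in YFP- and -0.28 ± 0.22 in YFP+ cells of young mice, a difference of 1.55 ± 0.30 (adjusted p = 0.0655). The mitochondrially encoded list had a median log2 change of 0.47 here, 0.53 in young YFP+ cells, -0.34 in 24-week mice at day 90 and -0.48 at day 5, and the ER secretion list of -0.25, -0.20, -0.02 and 0.06. No member of either list passed the test of the difference.

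**Figure D5:**
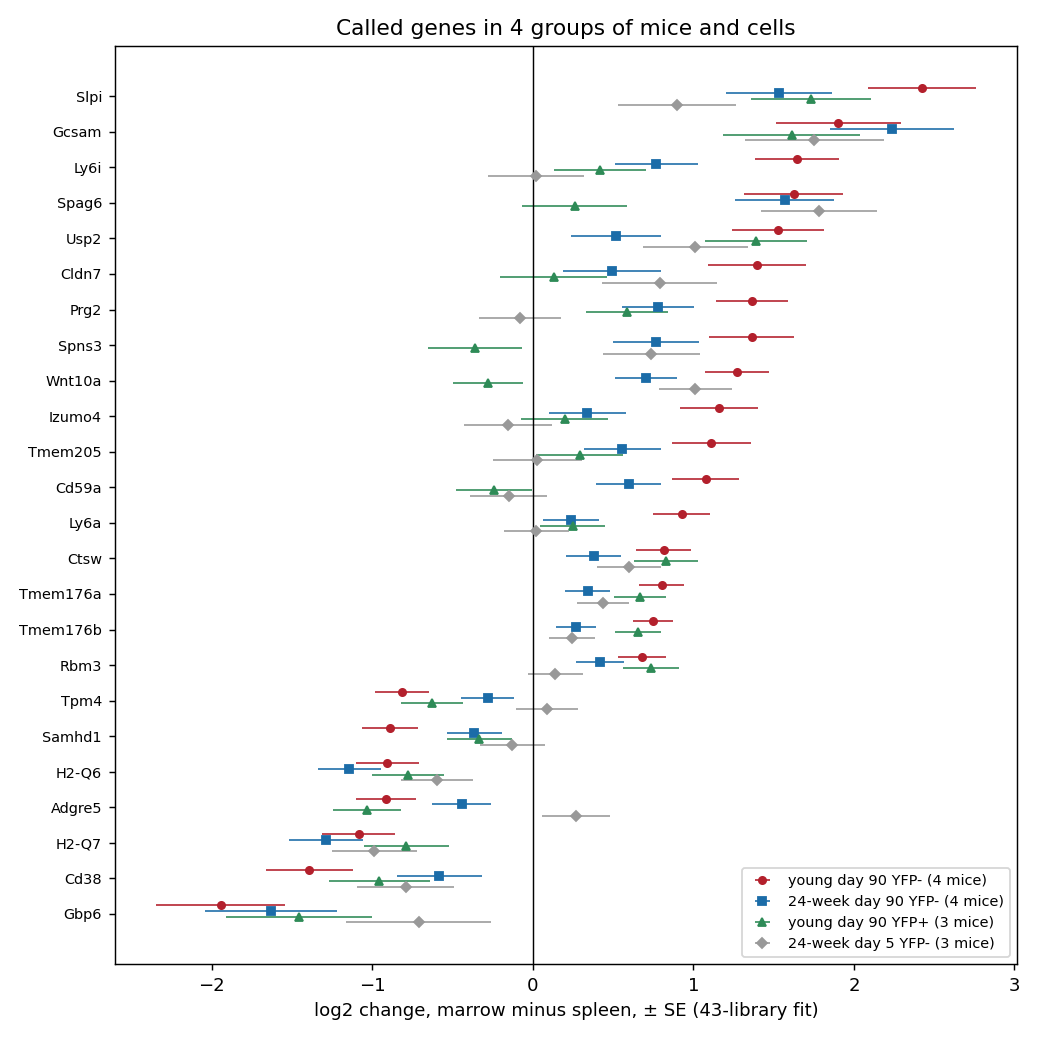
Log2 change (marrow minus spleen) ± SE of 24 of the 26 called genes, in young day 90 YFP- cells and in 3 other groups, from the 43-library fit; Samd11, with 3 counts in marrow, is not drawn. The 24-week day 90 values lie on the same side of 0 as the young ones for all 24 genes.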

How the data were processed

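Libraries were made from sorted cells with SMART-Seq v4 and Nextera XT, per the labels' protocols. The tools listed in the submitters' processing notes are RSEM 1.3.1, STAR 2.6.1b and DESeq2 1.26.0, beside the builds GRCm38 and GRCm39, whose roles are not given. Values in the deposited table are expected counts of each gene, which the authors made without immunoglobulin genes and did not scale between libraries. Of its values, 3.1% were not whole and were rounded. It has 54960 gene rows, of which 1362 carry no gene name, and 44 libraries. In 1 library the title and the cell type label disagree, and it was left out.

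Counts were tested in R 4.3.3 with edgeR 4.0.16: TMM scaling, filterByExpr (minimum count 10), robust quasi-likelihood, 1 mean per group of 12 groups and the mouse as a fixed block, over 43 libraries. P-values were adjusted by Benjamini-Hochberg over all genes of a contrast, with a threshold of 0.05. Called means past that threshold. CPM are TMM-scaled, group values are means ± SD and changes are log2 ± SE. The titles name the mouse, and deviations from the group means correlated across genes at 0.317 to 0.358 between the organs of 1 mouse and at -0.17 to -0.0026 between mice, so the libraries are paired. The titles also carry a day and month that both libraries of a mouse share and whose meaning is not stated.

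Alternatives were limma 3.58.1 voom, DESeq2 1.42.0, DESeq2 size factors, other count filters, no block, the 8 libraries alone and leaving out each mouse; those run on the 8-library fit were chosen after seeing the data. Genes named by rule were up to 15 each way by p, at least 2-fold changed and at 20 CPM or more in the higher group, without immunoglobulin, Y-linked and unnamed genes; 1 called gene is counted but not reported here. The members and the lists were chosen with earlier results of these data known. Shared windows are 50-base stretches of the longest coding transcript of a gene in GENCODE M21 found in another gene's transcripts on either strand. The table is not stated to use strand. On simulated counts the 43-library fit recovered 36 of 99 genes changed by 1 and 66 of 98 changed by 2 on the log2 scale. It called 4 of 11971 unchanged genes. The 8-library fit recovered 47 of 82 and 71 of 86, and called 7 of 10295 unchanged genes. Each set of counts was simulated with the spread estimated from the libraries of its own fit. The 2 recoveries therefore cannot show which estimate of the spread is right.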

Additional observations from a re-analysis of the deposited data

Results flagged for a closer look

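Of 198 sets of 4 libraries examined (1 gene or marker list in 1 organ), 13 held 1 library far from the other 3; chance gives about 1 set in 20. In marrow, M2 stood apart for Slpi (30524 CPM against 13120 to 15387), Cd74 (26024 CPM), H2-Aa (244 CPM) and Cd36 (4.77 CPM), M7 for Tap2 (31.2 CPM) and the neutrophil list (862 CPM), and F2 for mt-Nd1 (795 CPM) and mt-Atp6 (1201 CPM), each as the highest. In spleen, M2 stood apart for Wnt10a (80.2 CPM), Cd40 (13.5 CPM) and B2m (5619 CPM), and F2 for Adgre5 (97.4 CPM) and Syvn1 (137 CPM), each as the highest. The called genes among them, Slpi, Wnt10a and Adgre5, changed in 1 direction in all 4 mice.

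The organ difference of Prss34 in young mice differed from that in 24-week mice at day 90 by -10.82 on the log2 scale and from that at day 5 by -11.62, by the test of the difference (edgeR; adjusted p = 0.00146 and 0.000363). Prss34 was near 0 in all 8 young libraries, so both fitted values are no bound. The signal lay in 2 of 4 marrow libraries of 24-week mice at day 90 (150 and 240 CPM) and in 1 of 3 at day 5 (2236 CPM).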

How the results depend on the processing

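The 43-library fit called 17 genes higher and 9 lower in marrow. With no replicate block these counts were 0 and 0, although the mouse pairs the libraries. They were 143 and 160 with the 8 compared libraries alone and the replicate block, 64 and 72 with no filter on low counts, and 43 and 34 with the DESeq2 Wald test. Voom called 17 lower, and its count of higher genes, like both counts with DESeq2 size factors or a stricter filter, stayed within 1.5 times. Leaving out each mouse in turn gave 2 to 11 higher (F2 out 8, F9 out 3, M2 out 2, M7 out 11) and 0 to 3 lower (F2, F9 or M2 out 0, M7 out 3), from fits with fewer samples. None of the 26 called genes changed sign in the alternatives run.

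The 8-library fit called 292 higher and 254 lower with DESeq2. Leaving out each mouse in turn gave it 46 to 75 higher and 49 to 108 lower; without F2 these were 46 and 49, without F9 46 and 55, without M2 75 and 108, and without M7 58 and 66.

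The difference from 24-week mice called 1 gene, 0 with no replicate block, 54 with no filter, 20 with DESeq2, 2 with voom and 0 to 2 without 1 mouse (0 without F2, 2 without F9). The difference from YFP+ cells called 0, 58 with no filter and 36 with DESeq2. The difference from day 5 called 1, 0 with no replicate block, 1021 with no filter, 945 with DESeq2, 0 with voom and 0 to 2 without 1 mouse (0 without F2, 2 without F9). The cause of these shifts was not tested. In simulated data the 43-library fit recovered 36 of 99 genes changed by 1 on the log2 scale, so a gene not called is not shown to be even.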
